A study of Mus musculus with 2 samples.

Results

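The metabotropic glutamate receptor genes Grm2, Grm3, Grm4, Grm5, Grm7 and Grm8 and the delta receptor gene Grid1 were followed through polyA RNA-seq of newborn mouse forebrain. The 7 genes were taken by name from the 55536 genes of the deposited table, and other genes of these families were not analysed here. The material was whole forebrain of B6NCrl mice at birth (P0, age 0 days), with no treatment named in the labels, and 1 library came from pup 3 (replicate 2) and 1 from pup 1 (replicate 1), each made from 10 ng of RNA of a single forebrain. Both libraries belong to 1 group, sex was not recorded, and 1 donor identifier stands in the labels of both pups. With 2 samples of 1 condition no test between groups can be made, and a two-sided exact sign-flip test could not go below p = 0.5. All differences between pups are therefore given by size alone, as log2 of pup 3 over pup 1, so that a negative value means a lower level in pup 3.

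Metabotropic glutamate receptors are G protein-coupled receptors that sense glutamate at the cell surface and tune synaptic transmission more slowly than the glutamate-gated ion channels. Group I receptors (here Grm5, for mGluR5) couple to Gq and phospholipase C and sit mainly on the postsynaptic side. Group II receptors (Grm2 and Grm3) and group III receptors (Grm4, Grm7 and Grm8) couple to Gi and Go, lower cyclic AMP and largely restrain transmitter release from the presynaptic side, while mGluR3 is also found on glia. Delta receptors have the build of ionotropic glutamate receptors but act as synaptic organisers that bind cerebellins, which in turn bind neurexins.

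The libraries held 41230878 expected counts in pup 3 and 40964891 in pup 1, of which 11825 and 16136 fell on the 7 genes. Forebrain identity was carried by the telencephalic markers, with 6 of 6 detected, and none of 6 midbrain and hindbrain markers was, 3 of them at 0 in both pups. Detection meant a TPM (the length-scaled share of all transcripts) of 1 or more in both pups. All 7 receptor genes were detected, against 26.6% of all listed genes and 59.5% of protein-coding genes. The 7 were chosen with earlier results of these data known, so this count says nothing about their families at large.

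In group I, Grm5 (ENSMUSG00000049583, chr7:87584168-88134907, plus strand) had the highest mean level of the 7, at 38.23 TPM in pup 3 against 55.33 TPM in pup 1, on 5147 and 6894 expected counts. The mean was 46.8 ± 12.1 TPM (SD, n = 2 pups), above 84.8% of protein-coding genes. How its transcripts are summed changes this level, since a short entry without a coding frame held a large share of it.

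That entry, Grm5-205, is 551 bases long and lies at the front of the gene (chr7:87584398-87602402), with its 4 exons ahead of the start codon of the leading coding transcript. It shares 347 of its bases with the untranslated front exons of that transcript and has 204 bases of its own. It took 38.1% of the Grm5 TPM in pup 3 and 33.1% in pup 1, but only 194 and 216 counts, or 3.76% and 3.14% of the counts of the gene. The main coding transcript, Grm5-202 (8047 bases, 1171 codons), took 51.7% and 52.9% of the TPM on 89.7% and 88.1% of the counts. A retained-intron entry, Grm5-206, took 6.04% in pup 3 and 8.41% in pup 1. Protein-coding transcripts alone summed to 20.89 TPM in pup 3 and 31.66 TPM in pup 1.

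mGluR5 occurs as a short form, mGluR5a, and as mGluR5b, in which a cassette exon adds residues to the intracellular tail. In rat brain mGluR5a is known as the main form of early life and mGluR5b as that of the adult. In the annotation the cassette is an exon of 96 bases, 32 codons, at chr7:88116193-88116288 on the plus strand of mm10. It is shown with 24 bases of the coding exon on either side, followed by the junction without it, since the reads on these forms carry the comparison between them. Capitals mark the cassette. The sequences are from the GENCODE M21 transcripts.
Grm5-204, with the cassette: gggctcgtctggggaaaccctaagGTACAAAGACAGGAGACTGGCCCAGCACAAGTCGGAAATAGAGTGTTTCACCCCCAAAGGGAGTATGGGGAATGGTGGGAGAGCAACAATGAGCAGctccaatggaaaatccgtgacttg
Grm5-202, without it: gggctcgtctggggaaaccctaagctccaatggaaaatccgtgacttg

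The form without the cassette prevailed in both pups. Grm5-204, the coding transcript with the cassette, stood at 1.14 TPM in pup 3 against 2.40 TPM in pup 1, on 148 and 276 counts. This was 5.46% of the TPM of the coding transcripts in pup 3 and 7.58% in pup 1 (mean 6.52 ± 1.5, SD, n = 2 pups), and the form without the cassette held 94.5% and 92.4%. The size of the minor share followed the annotation. Grm5-204 and Grm5-202 also end at different places, at chr7:88131654 and chr7:88134907, so reads on the long end of Grm5-202 count for 1 form alone. In the older release M4, Grm5-204 was at 0 counts in both pups. That release holds another Grm5 transcript of 3612 bases with no counterpart in M21, and when this transcript was taken as the cassette form by its length, the share was 22.8% in pup 3 and 24.9% in pup 1. The form without the cassette was the larger in each of these readings.

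In group II, Grm3 (ENSMUSG00000003974, chr5:9485541-9725170, minus strand), the group II receptor shared by neurons and glia, reached 35.49 TPM in pup 3 and 54.94 TPM in pup 1, on 3080 and 4231 counts (mean 45.2 ± 13.8 TPM). Only 1 transcript is annotated for it, so no short entry enters its level. Within each library Grm5 and Grm3 were nearly level, with a log2 ratio of Grm5 over Grm3 of 0.11 in pup 3 and 0.01 in pup 1. Their pups overlapped, so the order of the top pair was not settled by these libraries.

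The order of Grm5 and Grm3 turned round once short or untranslated entries were left out. From protein-coding transcripts alone the mean log2 ratio of Grm5 over Grm3 was -0.78, and it was -0.61 from transcripts of 1000 bases or more. In release M4 Grm5 had 28.66 TPM in pup 3 and 43.29 TPM in pup 1, while Grm3 had 41.08 and 60.47 TPM, a mean log2 ratio of -0.50. Without any division by length, CPM (counts scaled by library total) put Grm5 ahead by 0.72 on the log2 scale, since its main transcript is 8047 bases long and that of Grm3 3049 bases.

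**Figure D1:**
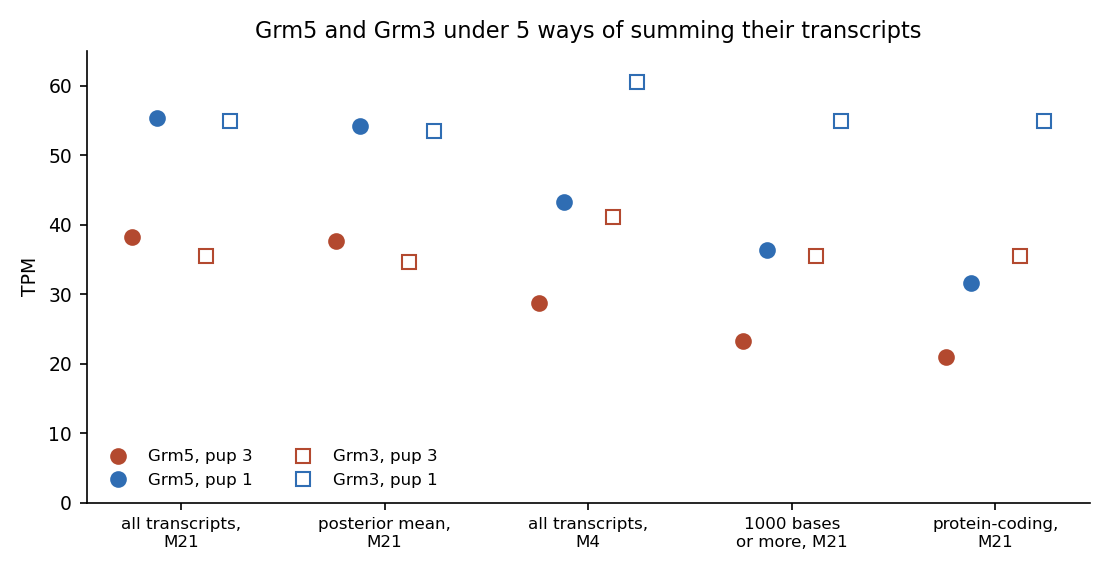
Level in TPM (y axis) of Grm5 (filled circles) and Grm3 (open squares) in pup 3 (red) and pup 1 (blue), for 5 ways of summing transcripts (x axis). With all M21 transcripts the genes are nearly level (38.23 and 35.49 TPM in pup 3), whereas protein-coding transcripts alone give Grm5 20.89 TPM in pup 3 and 31.66 TPM in pup 1, below Grm3 in each pup.

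Grm2 (ENSMUSG00000023192, chr9:106643095-106656082, minus strand), the mainly presynaptic member of group II, was the steadiest of the 7. It had 15.74 TPM in pup 3 and 17.09 TPM in pup 1, on 1512 and 1428 counts (mean 16.4 ± 0.955 TPM). Grm3 stood above Grm2 in each library, 2.25-fold in pup 3 and 3.21-fold in pup 1, and the pups of the pair did not overlap.

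Grm2 TPM was divided between 2 coding transcripts. Grm2-201 (4711 bases, 872 codons) held 48.2% of it in pup 3 and 45.7% in pup 1, and Grm2-203 (2111 bases, 594 codons) held 51.8% and 53.2%. Grm2-203 is the same reading frame without 834 bases, or 278 codons, that lie inside a single coding exon of 1076 bases, at chr9:106647271-106648104. The exact borders are printed because they define which reads can belong to the shorter form, with the left-out bases in capitals. The stretch begins with GT and ends with AG.
Grm2-201, start of the stretch: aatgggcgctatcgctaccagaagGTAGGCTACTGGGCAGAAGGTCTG
Grm2-201, end of the stretch: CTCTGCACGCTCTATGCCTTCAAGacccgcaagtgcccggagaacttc

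By counts the shorter form was the smaller of the pair. A transcript of 2111 bases gathers fewer counts per molecule than one of 4711 bases, so this does not conflict with its TPM share. Of the counts on both, Grm2-203 held 32.0% in pup 3 (483 counts) and 33.7% in pup 1 (478 counts). The transcripts also differ in where their last exon ends, at chr9:106643117 for Grm2-201 and chr9:106644885 for Grm2-203, and release M4 lists no transcript without the stretch. The share by TPM therefore rests on this annotation.

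In group III, Grm7 (ENSMUSG00000056755, chr6:110645581-111567230, plus strand), a receptor of presynaptic active zones with low affinity for glutamate, led its group. It had 8.94 TPM in pup 3 and 17.07 TPM in pup 1, on 1078 and 1787 counts (mean 13.0 ± 5.75 TPM). Pup 1 was level with Grm2 in the same pup (17.09 TPM) and pup 3 was well under Grm2, so Grm2 and Grm7 overlapped over the pups. Grm7 exceeded Grm4 3.56-fold in pup 3 and 3.78-fold in pup 1, and it exceeded Grm8 3.19-fold and 2.59-fold.

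Grm8 (ENSMUSG00000024211, chr6:27275119-28135178, minus strand), a high-affinity presynaptic receptor, stood at 2.80 TPM in pup 3 against 6.59 TPM in pup 1, on 287 and 458 counts (mean 4.70 ± 2.68 TPM). Grm4 (ENSMUSG00000063239, chr17:27422387-27521403, minus strand), a presynaptic receptor best known from the cerebellum, stood at 2.51 and 4.52 TPM, on 307 and 482 counts (mean 3.51 ± 1.42 TPM). Both genes were lower in pup 3, and the pups of Grm8 overlapped those of Grm4.

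The coding ends of the group III genes are printed because they separate the receptor forms. The last coding exon has 47 bases in the main-type transcript of each gene (GRCm38, stop codon left out), and 19 of these bases, 40.4%, are the same in all 3 genes and stand in capitals. The exons lie at chr17:27426787-27426833, chr6:111566018-111566064 and chr6:27275648-27275694 in the order printed.
Grm4-201: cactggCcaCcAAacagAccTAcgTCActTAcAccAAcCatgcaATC
Grm7-202: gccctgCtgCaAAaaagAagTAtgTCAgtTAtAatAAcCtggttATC
Grm8-201: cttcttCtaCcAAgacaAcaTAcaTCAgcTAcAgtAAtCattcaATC

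Grm7 and Grm8 have a second coding end each. In Grm7 it is a separate exon of 68 coding bases (chr6:111501510-111501577), the end of the form known as mGluR7b, whereas the end printed above belongs to mGluR7a. In Grm8 the frame of Grm8-202 and Grm8-203 reads on past the previous exon for 47 bases (chr6:27285688-27285734), of which 13 match the end of Grm8-201 position by position.
Grm7-201: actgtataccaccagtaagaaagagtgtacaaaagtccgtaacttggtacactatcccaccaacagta
Grm8-202: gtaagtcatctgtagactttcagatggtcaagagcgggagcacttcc

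By its annotated transcripts Grm7 was almost all of the mGluR7a type. Grm7-202, with the shared type of end, held 98.7% of Grm7 TPM in pup 3 and 89.3% in pup 1. Grm7-201 was at 0 counts in pup 3 and at 31.1 counts in pup 1, which was 2.49% of the TPM of both forms in pup 1. Grm7-201 and Grm7-202 also end at different places, at chr6:111566067 and chr6:111567230. Reads on the long end of Grm7-202 therefore count for 1 form alone, and the share rests in part on this annotation. A transcript annotated as a target of nonsense-mediated decay, Grm7-204, took 1.29% in pup 3 and 6.63% in pup 1, on 13.9 and 121 counts.

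Grm8 showed the reverse make-up, with the read-on end in front. Grm8-202 and Grm8-203 together held 74.6% of the full-length coding TPM in pup 3 and 89.3% in pup 1, on 218 and 364 counts. Grm8-201, with the end that resembles Grm4 and Grm7, held 25.4% and 10.7%, on 53.7 and 32.5 counts. The transcripts also end at different places, at chr6:27275612 for Grm8-201 and at chr6:27275119 and chr6:27275128 for Grm8-202 and Grm8-203. Reads on the longer ends count for the read-on form alone, so its share rests on this annotation too. As annotated, the 2 group III genes with a choice of ends had opposite kinds in front, in both pups.

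Short Grm8 entries were estimated at different shares in the pups, with wide error. Grm8-204 (1238 bases) held 1.79% of Grm8 TPM in pup 3 and 17.0% in pup 1, on 1.68 and 33.3 counts. Grm8-205 (532 bases) was at 0 in pup 3 and held 15.1% in pup 1, on 11.3 counts. By the posterior means the shares were closer, at 11% in pup 3 and 16.5% in pup 1 for Grm8-204 and 5.14% and 16.8% for Grm8-205, and the deposited TPM bounds of the pups overlapped for both entries. With the point estimates the mean effective length of Grm8 was 3481 bases in pup 3 and 2664 bases in pup 1, and 1 count was worth 0.00976 TPM in pup 3 and 0.0144 TPM in pup 1. The TPM of Grm8 therefore differed more between the pups than its counts did.

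Grm4 was held by Grm4-201 (912 codons), with 69.1% of Grm4 TPM in pup 3 and 70.0% in pup 1. The other transcript with counts in both pups was Grm4-206, with 30.9% and 27.2% on 76.6 and 108 counts. Its frame of 657 codons starts later, at chr17:27473019 in place of chr17:27503165, so it leaves out the start of the extracellular part of the receptor. The remaining coding transcripts of Grm4 were at 0 counts in both pups. Release M4 does not list Grm4-206, and there the leading transcript held a mean of 98.4% of Grm4 TPM, while posterior means in M21 gave it 56.7%, so this division too rests on the annotation and the estimate.

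**Figure D2:**
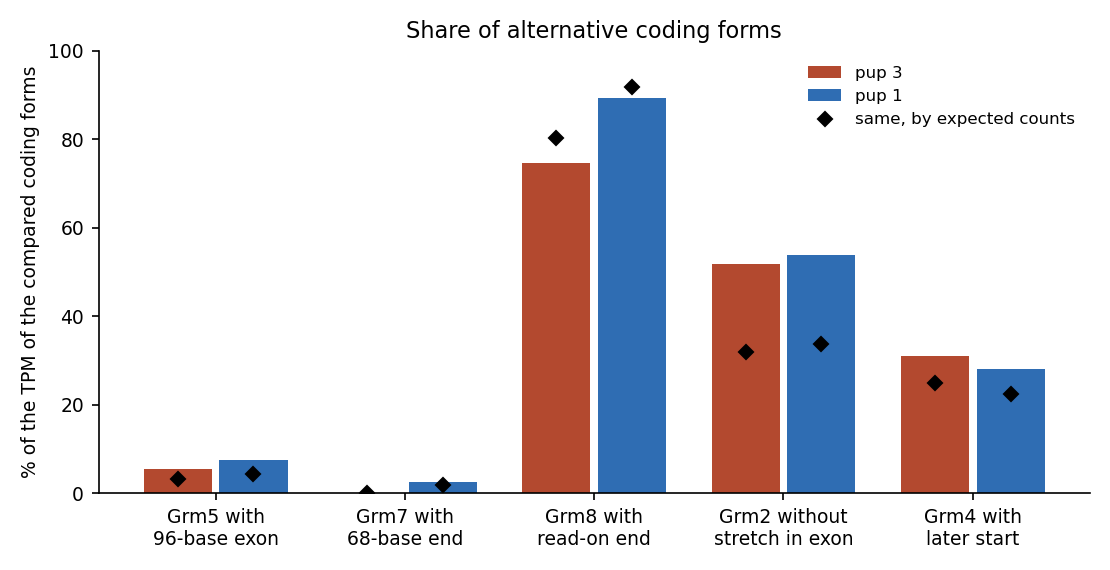
Percent of the TPM of the compared coding transcripts (y axis, bars from 0) held by each gene's alternative form. Pup 3 is red (left) and pup 1 blue (right), with the same share by expected counts as diamonds. The read-on end of Grm8 was the larger form (74.6% and 89.3%) and the cassette form of Grm5 a small one (5.46% and 7.58%). The Grm2 form, the shorter transcript of its pair, changes sides between TPM (51.8%) and counts (32.0%) in pup 3.

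The delta gene Grid1 (ENSMUSG00000041078, chr14:34820108-35583379, plus strand) encodes GluD1, a delta receptor with wide forebrain expression, and had 2.65 TPM in pup 3 and 7.58 TPM in pup 1, on 414 and 857 counts (mean 5.12 ± 3.49 TPM). It had the widest gap between the pups of the 7 genes. Grid1-201 (5720 bases, 1009 codons) held 93.6% of Grid1 TPM in pup 3 and 73.6% in pup 1. The remainder was Grid1-202, an 825-base entry without a coding frame, with 0.17 and 2.00 TPM on 3.62 and 37.9 counts. Of its bases, 734 are shared with Grid1-201, so short reads can seldom tell them apart. From the coding transcript alone Grid1 was at 2.48 TPM in pup 3 against 5.58 TPM in pup 1.

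By mean TPM the 7 genes fell into 3 tiers. Grm5 and Grm3 were above Grm2 and Grm7, and these were above Grid1, Grm8 and Grm4. The lowest value of the upper tier was 35.5 TPM (Grm3, pup 3), against a highest value of 17.1 TPM for Grm2, and the lowest value of Grm7 was 8.94 TPM, against a highest value of 7.58 TPM for Grid1. Between tiers the pups did not overlap, and within each tier neighbours overlapped. The tiers also stood apart with protein-coding transcripts alone, where the upper tier started at 20.89 TPM against at most 17.09 TPM in the middle one, and the middle one at 8.82 TPM against at most 6.42 TPM in the lowest. Group II held 48.2% of the summed TPM of the 7 genes in pup 3 and 44.2% in pup 1, Grm5 of group I held 35.9% and 33.9%, group III held 13.4% and 17.3%, and Grid1 held 2.49% and 4.65%. With protein-coding transcripts alone the mean share of group II was 55.4% and that of Grm5 23.4%.

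**Figure D3:**
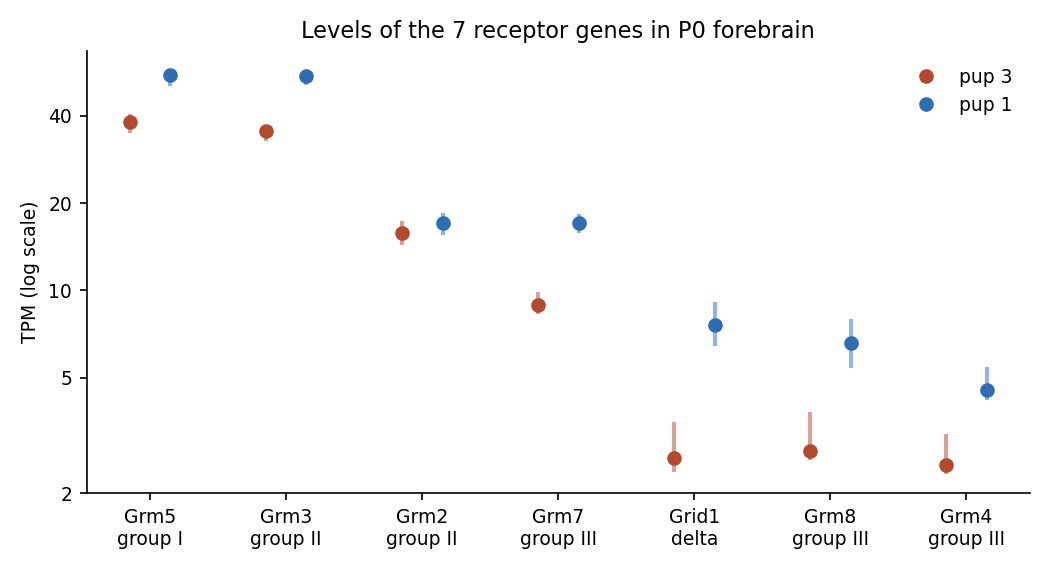
TPM (y axis, log scale) of the 7 genes in pup 3 (red, left) and pup 1 (blue, right), with bars for the interval that the authors deposited for each value. The genes form 3 tiers, led by Grm5 and Grm3 between 35.49 and 55.33 TPM, and pup 3 is below pup 1 for each gene, by the least for Grm2 (15.74 and 17.09 TPM).

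**Figure D4:**
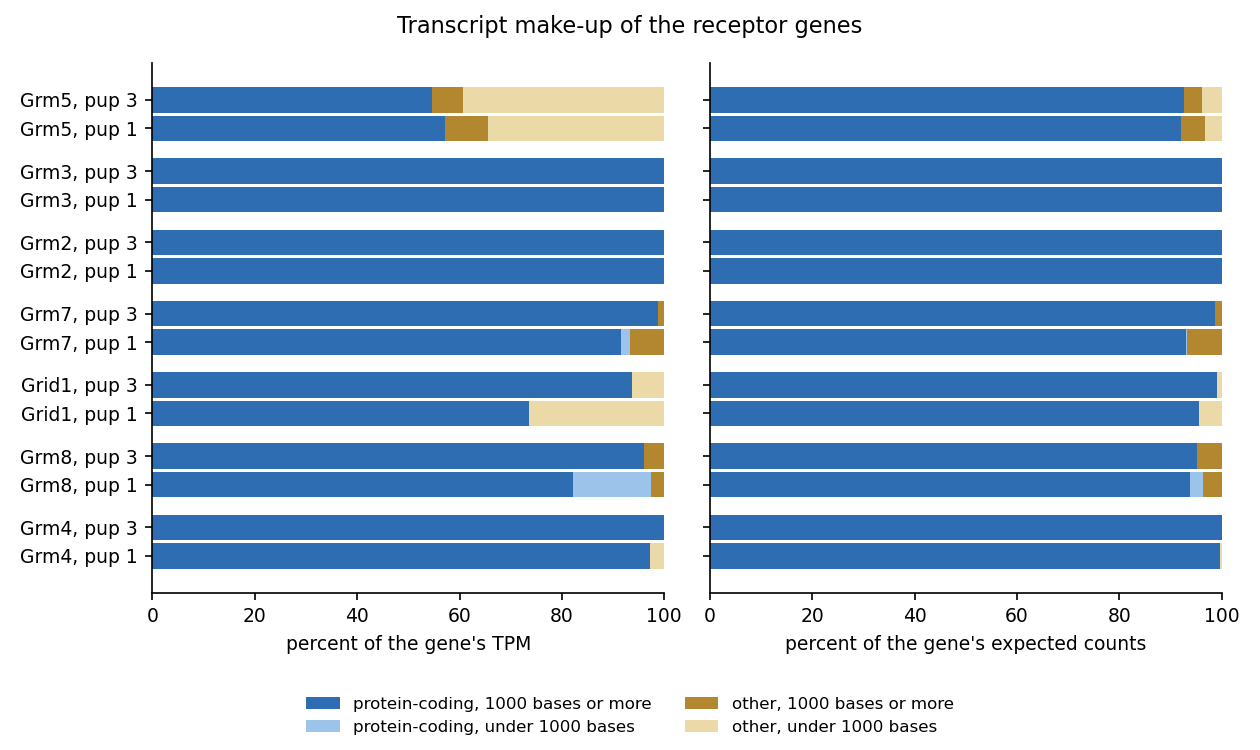
Share of each gene's TPM (left) and of its expected counts (right) by kind and length of transcript, with pup 3 above pup 1 for each gene. Entries that are not protein-coding and under 1000 bases are a large part of Grm5 TPM and, in pup 1, of Grid1 TPM (26.4%), but a small part of the counts (4.42% for Grid1 in pup 1).

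All 7 genes were lower in pup 3 than in pup 1, as were 79.6% of all genes with a mean of 1 TPM or more, and 6 of the 7 were lower by more than the median gene. In log2(TPM + 1), which understates the change of low genes, the differences were -0.52 for Grm5, -0.62 for Grm3, -0.11 for Grm2, -0.86 for Grm7, -1.0 for Grm8, -0.65 for Grm4 and -1.23 for Grid1. The scale itself was shifted: the median over 15463 genes with a mean of 1 TPM or more was -0.24, and it was lower for genes with longer leading transcripts, at -0.10 under 2000 bases, -0.26 from 2000 to 3999 bases and -0.42 at 4000 bases or more. Relative to the all-gene median, 6 of 7 receptor genes were below, where 50.0% of all genes are by construction and 78.8% of genes with a leading transcript of 4000 bases or more were. Their median was -0.42 relative to the all-gene median and -0.35 relative to genes of their own length class.

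The exception was Grm2, which was 0.13 above the all-gene median and 0.15 above its length class. Grid1 was the farthest below, at -1.0 and -0.81, and only 0.7% of genes of its length class were lower. Grm8 followed at -0.76 and -0.73, and Grm7 at -0.62 and -0.44. Grm5 was close to its own class, at -0.28 and -0.10, with 34.0% of genes of that class lower. Grm3, at -0.38 and -0.35, was farther below its class than Grm4 of group III, at -0.42 and -0.23. Relative to the length classes the distances thus did not sort by receptor group. Relative to the all-gene median each group III gene was below Grm3, Grm5 and Grm2, though Grm4 was so by little, and Grid1 was lowest.

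**Figure D5:**
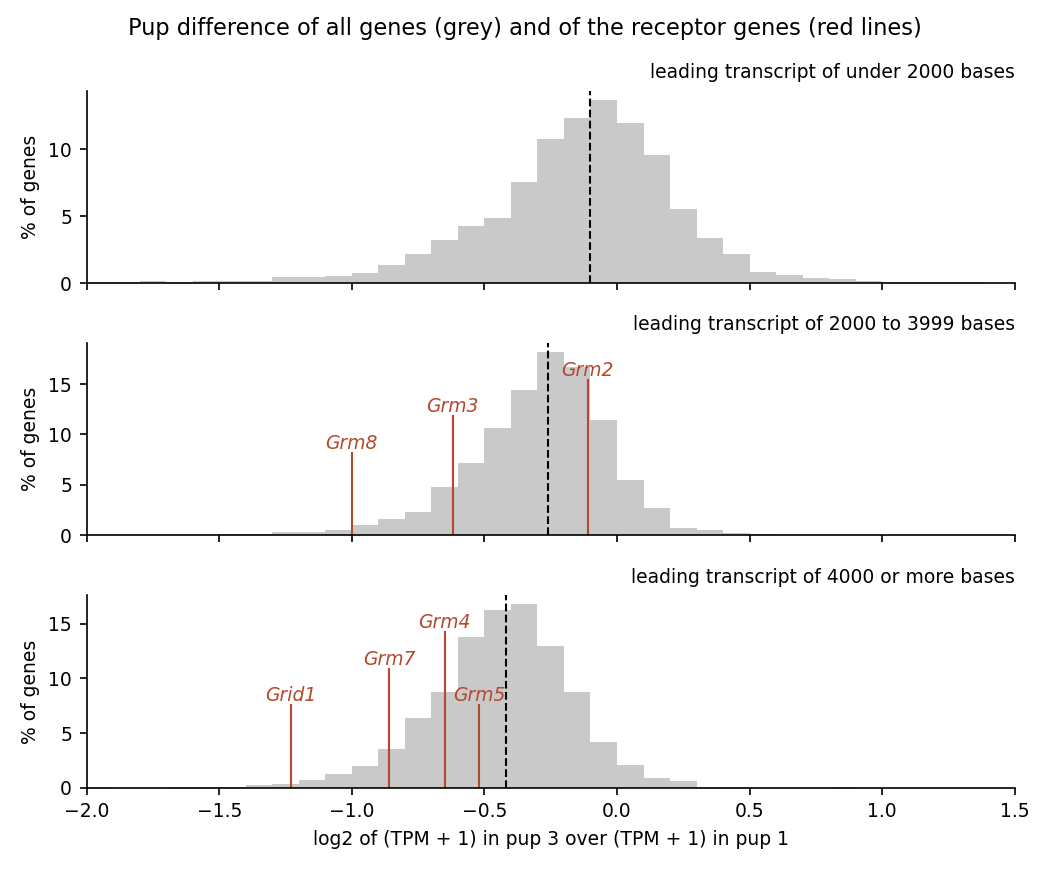
Distribution over genes of the log2 ratio of (TPM + 1) in pup 3 over pup 1 (x axis; y axis, percent of the genes of a class), by length of the leading transcript, with the class median as a dashed line and the receptor genes as red lines whose heights carry no value. Grid1 (-1.23) and Grm8 (-1.0) lie in the lower tail of their classes, and Grm2 (-0.11) lies above the median of its class (-0.26).

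Expected counts without any division by length gave the same direction between the pups for each gene except Grm2. The ratio of count rates, pup 3 over pup 1, was 0.480 for Grid1 (95% exact interval 0.426 to 0.540, counting error only). It was 0.599 for Grm7 (0.555 to 0.647), 0.623 for Grm8 (0.535 to 0.723) and 0.633 for Grm4 (0.547 to 0.732). Grm3 had 0.723 (0.690 to 0.758) and Grm5 0.742 (0.715 to 0.769), while Grm2 had 1.05 (0.978 to 1.13), an interval that holds 1. These intervals describe the 2 libraries and hold none of the variation between animals.

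Of the 6 genes with 5 TPM or more in at least 1 pup, Grid1 alone was over 2-fold apart in log2(TPM + 1), against 2.50% of the 11477 such genes in either direction, 2.17% lower in pup 3, and 3.44% lower in pup 3 among those with a leading transcript of 4000 bases or more. With a pseudocount of 0.1 in place of 1 the count was 2. Which gene passed also depended on the transcripts summed. From protein-coding transcripts alone Grid1, at 2.48 TPM in pup 3 against 5.58 TPM in pup 1, was under 2-fold apart on that scale. Grm8, at 2.69 and 6.42 TPM from such transcripts, was just over it.

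Regional markers differed between the pups as well. The 5 thalamic markers, all detected, summed to 119 TPM in pup 3 and 296 TPM in pup 1, with 5 of 5 below the all-gene median and 3 over 2-fold apart. Among them Tcf7l2, a transcription factor of the thalamus and habenula and 1 of those 3, had 89.58 TPM in pup 3 against 233.20 TPM in pup 1, and Rora, an orphan nuclear receptor, had 9.55 and 19.72 TPM. Hypothalamic markers, 5 of 6 detected, summed to 93.2 TPM in pup 3 and 212 TPM in pup 1, with 4 over 2-fold apart, among them Avp, which encodes vasopressin, at 66.03 and 149.75 TPM. Telencephalic markers ran the other way, with 482 TPM in pup 3 and 378 TPM in pup 1, led by Neurod6, a factor of cortical excitatory neurons, at 315.67 and 196.84 TPM. The part of these markers in the receptor differences was not tested, and in whole tissue fewer cells of a type and less RNA per cell cannot be told apart.

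Markers of young neurons summed to 3051 TPM in pup 3 against 3518 TPM in pup 1. Their median log2 ratio was -0.15 relative to all genes, but only 2 of these 4 markers were below the all-gene median. Those of radial glia and astrocytes summed to 2632 and 2566 TPM, most of it from Fabp7, a radial glial fatty acid binding protein, at 2326.38 TPM in pup 3 against 2151.18 TPM in pup 1. Of the 5 glial markers 4 were below the all-gene median, with a list median of -0.19, and Gfap and Aqp4, markers of astrocytes, were at -0.52 and -0.50 relative to it. The part of these markers in the receptor differences was not tested either.

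The signalling partners of mGluR5 were present throughout. Of 9 genes of the Gq pathway all were detected, with a median log2 ratio of -0.20 relative to all genes and 8 of 9 below the all-gene median. The highest was Gna11, a Gq-family alpha subunit, at 105.65 TPM in pup 3 against 104.41 TPM in pup 1, followed by Prkcb, a protein kinase C, at 72.96 and 120.14 TPM. Prkca, another protein kinase C, was the lowest at 3.09 and 4.11 TPM. Plcb4, a phospholipase C beta of the pathway, was the only gene of the list over 2-fold apart, at 4.39 TPM in pup 3 against 12.83 TPM in pup 1.

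All 10 genes for scaffold and binding proteins of mGluR5 were detected as well. Cyth2, an exchange factor for Arf proteins, had 252.34 TPM in pup 3 against 232.89 TPM in pup 1, and Ncdn, for the cytosolic protein neurochondrin, had 162.88 and 183.99 TPM. The lowest, Grasp, a scaffold that binds group I receptors, had 2.71 TPM in each pup. The list was divided: 4 of its 10 genes lay under the all-gene median, and the list had a median of 0.10 relative to it. Shank1, Shank3 and Shank2, scaffolds of the postsynaptic density, were the farthest below at -0.71, -0.54 and -0.51.

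Of 15 genes for the Gi and Go pathway that groups II and III use, 14 were detected, and the list's median lay at -0.05 relative to all genes. Its highest entries were G protein beta and gamma subunits that serve many receptors, Gnb1 at 980.46 TPM in pup 3 against 1173.31 TPM in pup 1 and Gng3 at 494.50 and 490.75 TPM. Kcnj6, a subunit of the G protein-gated potassium channel, missed the limit with 0.38 TPM in pup 3 and 1.20 TPM in pup 1. None of these genes with 5 TPM or more was over 2-fold apart.

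The 4 group III partners were detected, with a median of -0.08 relative to all genes. Pick1, a PDZ protein that binds the tail of mGluR7, had 48.43 TPM in pup 3 against 60.04 TPM in pup 1, and Grip1, another PDZ protein, had 9.06 and 12.22 TPM. Elfn1, a postsynaptic adhesion protein that recruits mGluR7 across the synapse, had 3.24 TPM in pup 3 and 2.80 TPM in pup 1. Grm7 itself was lower in pup 3 (-0.62 relative to all genes), while these partners stayed near the all-gene median or, for Elfn1, above it at 0.40.

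All 9 genes of receptor desensitization were detected, with a median of -0.07 relative to all genes. The highest were Rgs4 and Rgs2, which speed the turning off of G proteins, at 59.50 and 57.08 TPM in pup 3 and 78.91 and 70.97 TPM in pup 1. Grk5, a receptor kinase, was the lowest at 1.17 and 1.07 TPM.

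The extracellular partners of delta receptors differed more. Of 7 genes 6 were detected, 5 of 6 lay below the all-gene median, and the list's median was -0.47 relative to it. Cbln4, a secreted cerebellin, had 9.13 TPM in pup 3 and 19.79 TPM in pup 1, over 2-fold apart as Grid1 was. Cbln2, the cerebellin with the highest level, had 59.89 TPM in pup 3 against 78.49 TPM in pup 1, and Cbln3 was under the limit at 0.19 and 0.27 TPM.

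Glutamate transporters supply and clear the ligand of these receptors, and 5 of 6 were detected. The highest were Slc1a3, the glial uptake carrier GLAST, at 117.16 TPM in pup 3 against 158.27 TPM in pup 1, and Slc17a7, the vesicular carrier VGLUT1, at 39.98 and 39.32 TPM. Those over 2-fold apart were Slc1a2, the glial carrier GLT-1, at 6.33 TPM in pup 3 against 15.20 TPM in pup 1, and Slc17a6, the vesicular carrier VGLUT2, at 22.10 and 45.26 TPM. Slc17a8, the vesicular carrier VGLUT3, was under the limit at 0.19 and 0.41 TPM.

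Beside the ionotropic glutamate receptor subunits the 7 genes had a like median level and showed a like difference. The levels do not compare like choices of genes, however. The 7 are a named part of their families, all detected, while the ionotropic list includes undetected genes, which lower its median. The 16 ionotropic genes, 13 of them detected, had a median of mean TPM of 13.2, against 13.0 for the 7 genes, and summed to 280 TPM in pup 3 and 471 TPM in pup 1, against 106 and 163 TPM. Their 14 genes with a mean of 1 TPM or more were all below the all-gene median, with a median of -0.49 relative to it. Among AMPA receptor subunits Gria2 had 80.69 TPM in pup 3 and 131.31 TPM in pup 1, Gria1 38.92 and 76.56 TPM and Gria3, the lowest, 7.48 and 15.68 TPM. Among NMDA receptor subunits Grin2b had 49.66 TPM in pup 3 and 84.56 TPM in pup 1, Grin1 37.26 and 48.05 TPM and Grin3b, the lowest, 0.07 and 0.15 TPM. The leading Grin2b transcript has only 241 bases, so its TPM, which enters the ionotropic sums, rests in part on a short entry. By counts Grin2b had 3182 in pup 3 and 5746 in pup 1, against 3801 and 4438 for Grin1. Among kainate receptor subunits Grik2 had 14.25 TPM in pup 3 and 24.97 TPM in pup 1, Grik1 12.38 and 19.60 TPM and Grik3, the lowest, 2.24 and 3.55 TPM. A log2 ratio between the pups below that of the median gene was thus shared by these 14 ionotropic genes, whereas that of Grm2 was above it, at 0.13.

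Reads could be shared with few other genes. Of 19 annotated genes that overlap the 7, 4 share exon bases with them. The antisense gene Gm20387 shares 130 bases with Grm7 and had 0.47 TPM in pup 3 against 0.97 TPM in pup 1, and Gm28111 shares 470 bases with Grm2 and had 0.03 and 0.09 TPM. The other two, Gm27617 in Grid1 and Mir592 in Grm8, were at 0 counts. The sources used here do not say whether the library kit marks strand, so reads of a gene and its antisense partner cannot be told apart.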

How the data were processed

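Per the labels' protocols, RNA was extracted with mirVana, primed with oligo-dT and made into libraries by Nextera tagmentation with ERCC spike-ins. The authors deposited, for mm10 with GENCODE M21 and M4, tables of expected counts, TPM, FPKM and posterior mean TPM. They also deposited TPM bounds, used here as a signal range whose level no source states, and the percent of gene TPM held by each transcript. For the aligner and quantifier: not given in the sources used here. M21 was used throughout, M4 as an alternative.

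Symbols, coordinates and coding sequences came from GENCODE M21 (GRCm38, mm10), where all 7 genes matched. No protein table was used, so a planned protein comparison was replaced by coding DNA. Differences were log2((TPM + 1) in pup 3 over (TPM + 1) in pup 1), set against the median of genes with a mean of 1 TPM or more. Over 2-fold was counted among genes with 5 TPM or more in at least 1 pup. Count rate ratios carry 95% exact conditional intervals on expected counts rounded to whole numbers, which cover counting error only. The ratio without the added 1 was tested on simulated counts of well-counted genes, with counting error alone and no shift by transcript length. Python 3.11.15, pandas 2.3.3, scipy 1.17.1 and R 4.3.3 were used, with edgeR 4.0.16 and DESeq2 1.42.0 for scaling factors alone.

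Alternatives changed the TPM estimate, annotation, transcripts summed, pseudocount, scaling, low filter, detection limit and fold. All transcripts with a mean of 10% or more of their gene's TPM, or 5% if protein-coding, are named, and from each list of partner genes the 2 highest, the lowest and those over 2-fold apart, except for a gene that is not reported here. Other transcripts, the Shank genes and the single marker genes were named after their values were seen. No gene was sought for a pattern like that of the 7, since there are 2 libraries of 1 condition. The 7 genes and all lists were chosen with earlier results of these data known.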

Additional observations from a re-analysis of the deposited data

How the results depend on the processing

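The mean log2 ratio of Grm5 over Grm3 was 0.06 (0.01 to 0.11 with either pup alone), but -0.50 in M4, -0.61 from transcripts of 1000 bases or more, -0.78 from protein-coding transcripts and 0.72 by CPM. That of Grid1 over Grm8, also 0.06, was -0.09 from transcripts of 1000 bases or more, -0.16 from protein-coding transcripts, 0.72 by CPM, and -0.08 in pup 3 alone against 0.20 in pup 1 alone. That of Grm8 over Grm4 was -0.09 by CPM. A limit of 5 TPM left 4 of 7 genes detected. Genes over 2-fold apart numbered 4 at 1.5-fold and 2 with a pseudocount of 0.1. The share of Grm5 was 34.9%, and 27.5% in M4 or 23.4% from protein-coding transcripts, while group II went with it at 46.2%, 52.4% and 55.4%. The Grm5 cassette form held 6.52% of coding TPM (5.46 to 7.58 with either pup alone), 3.72% by counts, 0.00% in M4 by identifier and 23.88% in M4 with the 3612-base transcript. The Grm7-201 share was 1.25%, and 3.56% by posterior means. By counts Grm2-203 held 32.82% in place of 52.81%, and Grm4-206 23.67% in place of 29.45%. Shares by counts and the M4 reading by length were chosen after seeing the data. The median difference of the 7 genes relative to all genes, -0.42, ranged from -0.56 with a pseudocount of 0.1 to -0.23 against genes with leading transcripts of 4000 bases or more, and 6 of 7 genes were below the median under each of the 9 alternatives tried for it. The all-gene median itself was -0.24 in TPM and 0.01 in CPM with TMM or DESeq2 scaling. No paired analysis was possible because both libraries belong to 1 group. Depth limits the minor forms most, several of which rest on under 100 counts.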

Other observations

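Several genes of unclear status are annotated inside the introns of Grm5, on its strand and with no exon base in common with it, and were counted after their values were seen. These 5 entries summed to 31 expected counts in pup 3 and 162 in pup 1, while Grm5 itself had 5147 and 6894. Gm44848 and Gm44847 held most of these counts in pup 1, with 8 and 5 counts in pup 3 against 72 and 50 counts in pup 1. At the other genes such entries held 0 to 10 counts. Of the 4 transcripts with a retained intron or decay annotation, both of those in Grm4 were at 0 counts, and the others had 180 counts in pup 3 and 321 in pup 1 for Grm5-206, and 13.9 and 121 for Grm7-204. No cause was tested.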
